A study of Mus musculus with 96 samples.

Results

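The mitosis genes described here are 37 named genes whose products drive entry into mitosis, build the spindle, hold chromosomes on it, or split the cell afterwards. They were listed by symbol, with earlier results of these data known, and all 37 were found among the 22422 genes of the count table. Each was counted over the coding sequence of its most abundant transcript. The tissue was the neural tube of mouse embryos at stage E11.5. Embryos heterozygous for the Xs-J allele of Eif3c (genotype label C3HeB/Eif3cXs-J/+) were set against wild-type C3HeB embryos. Eif3c encodes a subunit of eIF3, the factor that brings the small ribosomal subunit to mRNA. Per the labels' protocols, each preparation used the neural tubes of 1 litter, so embryos were pooled. The cells of a pool were divided between RNA-seq of poly(A) mRNA and ribosome profiling, which sequences the mRNA fragments ("footprints") that ribosomes protect from nuclease. There were 3 mutant and 3 wild-type pools in each assay, 12 libraries in all. Nothing in the labels states that replicate pools were different litters, and the p-values therefore reflect the spread between these pools, which may be technical.

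Mitosis is run by the kinase CDK1 with its cyclins, by Aurora and Polo kinases that assemble the spindle, and by a checkpoint that holds back the ubiquitin ligase APC/C until every kinetochore is attached. The mRNAs of many of these genes peak in G2 and mitosis, so they mark cycling cells. Among neural cells of the neural tube the cycling ones are the progenitors next to the lumen, which divide at the apical surface. The neurons they give rise to have left the cycle. Markers of erythroid, endothelial and mesenchyme cells also had counts here, and which cells carried the mitosis mRNAs was not tested.

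RNA libraries held 9573591 to 13109512 coding counts in the mutant, against 7200317 to 13137404 in wild type. Footprint libraries held 11310847 to 14842438 in the mutant, against 17278727 to 59202839 in wild type. The lowest count of any of the 37 genes in any library was 179, for Ccnb1 in wild-type RNA pool 3. Eif3c was lower in every mutant library than in every wild-type library, at 290 to 302 CPM (coding counts per 1000000, with TMM scaling) in mutant RNA against 474 to 518 CPM in wild type, and at 355 to 403 CPM in mutant footprints against 740 to 760 CPM. All 16 neural progenitor markers and all 20 neuron markers looked for had counts. On the first principal component of RNA, mutant pools 1, 2 and 3 lay at 26.1, -3.90 and 11.4, against -13.0 to -9.99 for the wild-type pools, and in footprints at 31.9, -4.47 and 11.3, against -14.0 to -10.8. Mutant pool 1 thus lay farthest from wild type and mutant pool 2 nearest to it. Mutant pool 1 also held the most erythroid RNA, with summed CPM of 6713, 3692 and 3062 in mutant pools 1, 2 and 3 against 2955 to 3609 in wild type.

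In RNA, every mitosis gene was higher on average in the mutant, by a small amount. The log2 change ran from 0.15 for Ccnb2 to 0.48 for Fbxo5, with a median of 0.26, a fold of 1.20, while the median over all 13406 genes tested was 0.01. Of the 37, 6 rose at an adjusted p under 0.05 in edgeR's quasi-likelihood test (Benjamini-Hochberg adjusted over all genes): Fbxo5, Aurka, Zwilch, Ttk, Kif11 and Kif20b. None fell. Over all genes tested, 0.224% rose and 0.164% fell, and 53.2% had a log2 change above 0. For 30 of the 37 genes every mutant library was above every wild-type library, which held for 11.2% of all genes, and for none was every mutant library below, which held for 11.0%. The other 31 genes had log2 differences of the same sign that did not pass, 27 of them with an unadjusted p under 0.05.

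Summed over the 37 genes, mutant RNA held 6992, 6840.2 and 7766 CPM in pools 1, 2 and 3, against 6005, 6135 and 5649.6 CPM in wild type. The 3 mutant sums were the higher ones. The median gene stood at a log2 ratio to the wild-type mean of 0.26, 0.18 and 0.37 in mutant pools 1, 2 and 3, against 0.04, 0.04 and -0.08 in wild type. Mutant pool 3, and not the outlying pool 1, was the highest. In whole tissue, more cells of a type and more RNA per cell cannot be told apart.

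**Figure D1:**
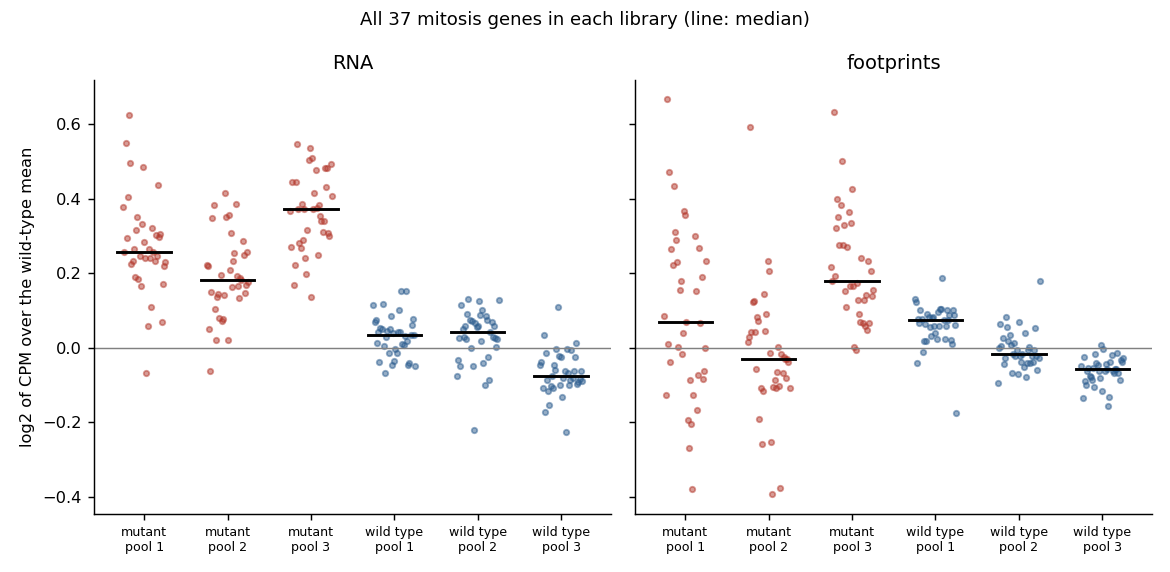
Log2 of each mitosis gene's CPM over its wild-type mean, in RNA (left) and footprints (right), with 1 point per gene and a line at the median of each library. In RNA the medians of the 3 mutant pools (0.18 to 0.37) lie above those of the 3 wild-type pools (-0.08 to 0.04), while in footprints the mutant medians (-0.03 to 0.18) overlap those of wild type (-0.06 to 0.07).

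Among the genes of the cyclin-CDK engine and APC/C control, 1 of 6 rose, Fbxo5 (mm10 chromosome 10, 5799160 to 5805600), which encodes EMI1, an inhibitor of the APC/C that lets cyclins build up. Fbxo5 RNA was 69.9, 57.7 and 61.7 CPM in mutant pools 1, 2 and 3, against 44.1, 46.9 and 44.9 CPM in wild type. The groups did not overlap, and the log2 change was 0.48 ± 0.09 (SE, edgeR adjusted p = 0.0427). Its mRNA shares 24.3% of its coding 30-base words with a predicted gene, Gm16042, so part of its count is uncertain. Cdk1, the mitotic kinase itself, had 129, 116 and 128 CPM in the mutant against 107, 94.1 and 96.1 CPM in wild type, without overlap (0.33 ± 0.07, edgeR adjusted p = 0.0638). The cyclin Ccna2, which acts in S phase and early mitosis, had a log2 difference of 0.25 and Cdc20, the activator of the APC/C at anaphase, one of 0.26. Of the B cyclins, partners of CDK1, neither separated the genotypes in RNA. Ccnb2 had 122, 95.1 and 112 CPM in the mutant against 100.2, 96.0 and 102 CPM in wild type, so mutant pool 2 lay below all of wild type, and its difference of 0.15 was the smallest of the 37.

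Of 6 mitotic kinases and passenger complex genes, 1 rose. Aurka (chromosome 2, 172356190 to 172370535), the Aurora kinase of centrosomes and spindle poles, had the smallest RNA p of the 37 genes. Aurka RNA was 81.0, 74.9 and 83.8 CPM in mutant pools 1, 2 and 3, against 59.5, 58.5 and 54.1 CPM in wild type. Every mutant pool was above every wild-type pool, and the log2 change was 0.48 ± 0.07 (SE, edgeR adjusted p = 0.0365). Tpx2, the spindle protein that activates Aurora A, had a smaller difference of 0.24 (edgeR adjusted p = 0.146). The Polo kinase Plk1 had one of the lowest, 0.18, with 104, 90.2 and 108 CPM in the mutant against 96.4, 90.3 and 79.8 CPM in wild type, groups that overlap. The chromosomal passenger complex, which corrects wrong attachments and later marks the midzone, gave close values for its kinase Aurkb (0.22), its scaffold Incenp (0.24) and borealin, encoded by Cdca8 (0.23), and in each of these the groups did not overlap.

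The spindle assembly checkpoint held 2 of the 6 genes that rose, and its other 4 members did not pass. Ttk (chromosome 9, 83834689 to 83872389) encodes MPS1, the kinase that starts checkpoint signalling at unattached kinetochores. It had 87.5, 92.6 and 98.5 CPM in mutant RNA against 67.3, 72.8 and 68.4 CPM in wild-type RNA (log2 change of 0.41 ± 0.07, edgeR adjusted p = 0.0391). Zwilch (chromosome 9, 64137144 to 64173104), part of the complex that brings dynein and checkpoint proteins to kinetochores, had 56.5, 51.5 and 58.6 CPM against 41.5, 41.9 and 37.7 CPM (0.46 ± 0.08, edgeR adjusted p = 0.0447). For both genes all mutant pools stood above all wild-type pools. The same separation was seen for the checkpoint kinase Bub1 (0.31), its relative Bub1b (0.17), Bub3 (0.18), which carries both to the kinetochore, and Mad2l1 (0.22), the inhibitor of CDC20, with edgeR adjusted p from 0.0586 for Bub1 to 0.282 for Mad2l1.

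None of the 7 centromere and kinetochore genes passed, although all were positive, from 0.15 for Cenpa, the histone variant that marks the centromere, to 0.37 for Cenpe, the motor that carries chromosomes to the middle of the spindle (edgeR adjusted p = 0.363 and 0.0642). Cenpe had 246, 266 and 296 CPM in the mutant against 207, 227 and 189.6 CPM in wild type, with no overlap. Cenpf, a large kinetochore protein of late G2 and mitosis, had 367, 444 and 498 CPM in the mutant against 381, 409 and 364 CPM, so mutant pool 1 lay within the wild-type range. Of the outer kinetochore, Knl1, the checkpoint scaffold, differed by 0.27, and the NDC80 complex that grips microtubules by 0.30 (Ndc80), 0.29 (Nuf2) and 0.21 (Spc25).

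Of 5 spindle motors and microtubule-binding genes, 1 rose. Kif11 (chromosome 19, 37376403 to 37421859), the kinesin that pushes the spindle poles apart, had 256, 268 and 267 CPM in mutant RNA against 206, 217 and 191 CPM in wild-type RNA (log2 change of 0.36 ± 0.06, edgeR adjusted p = 0.0393). The mutant pools lay close together and above all of wild type. Of its coding 30-base words, 11.6% also occur in a predicted gene, Gm15697. The other 4 differed by nearly the same amount: 0.27 for the microtubule-shortening kinesin Kif2c, 0.25 for the chromosome-arm kinesin Kif4, 0.25 for the bundling protein Nusap1 and 0.26 for Ckap2, which stabilises microtubules (edgeR adjusted p from 0.0887 to 0.139).

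Of 5 genes of the central spindle and cytokinesis, 1 rose. Kif20b (chromosome 19, 34922361 to 34975745), a kinesin needed for abscission of dividing neural progenitors in mice, had 149, 148 and 163 CPM in mutant RNA against 118, 123 and 122 CPM in wild-type RNA (log2 change of 0.34 ± 0.06, edgeR adjusted p = 0.0499), just under the threshold. All 5 genes of this role had every mutant pool above every wild-type pool. Kif20a, the midzone kinesin that recruits Polo kinase, had a larger difference than Kif20b with more spread between pools, at 188, 158 and 194 CPM in the mutant against 135, 146 and 137 CPM (0.37 ± 0.08, edgeR adjusted p = 0.0603). Kif23, the motor of centralspindlin, differed by 0.35, the antiparallel microtubule bundler Prc1 by 0.18 and Ect2, the exchange factor that starts the contractile ring, by 0.21.

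The 2 genes of chromosome structure had the highest CPM, which is not corrected for coding length. Top2a, the topoisomerase that untangles sister chromatids, had 1155, 1184 and 1396 CPM in mutant RNA against 1016, 1008 and 949.7 CPM in wild type (0.33 ± 0.08, edgeR adjusted p = 0.0786). Mki67, which encodes the proliferation marker Ki-67 that coats mitotic chromosomes, had 1039.6, 1002 and 1176 CPM against 856, 968 and 834 CPM (0.27 ± 0.08, edgeR adjusted p = 0.122). In both, no mutant pool fell within the wild-type range.

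The sign of the RNA difference held for every gene in every alternative run, while the calls did not. The count of 6 was 14 with DESeq2 and 14 with no filter on low counts. It was 1 (Aurka) when whole coding sequences were counted and 0 of 35 with offsets for coding GC content. It was 9 without mutant pool 1, 26 without mutant pool 2 and 0 without mutant pool 3 or any 1 of the wild-type pools. Over all genes, 30 rose and 22 fell in the main run. Those numbers were 132 and 276 with DESeq2, 170 and 292 with no filter, 15 and 7 with whole coding sequences and 1 and 1 with GC offsets. They were 41 and 33 without mutant pool 1, and 556 and 966 without mutant pool 2. Without mutant pool 3 or any 1 of the wild-type pools they were at most 1 each.

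**Figure D2:**
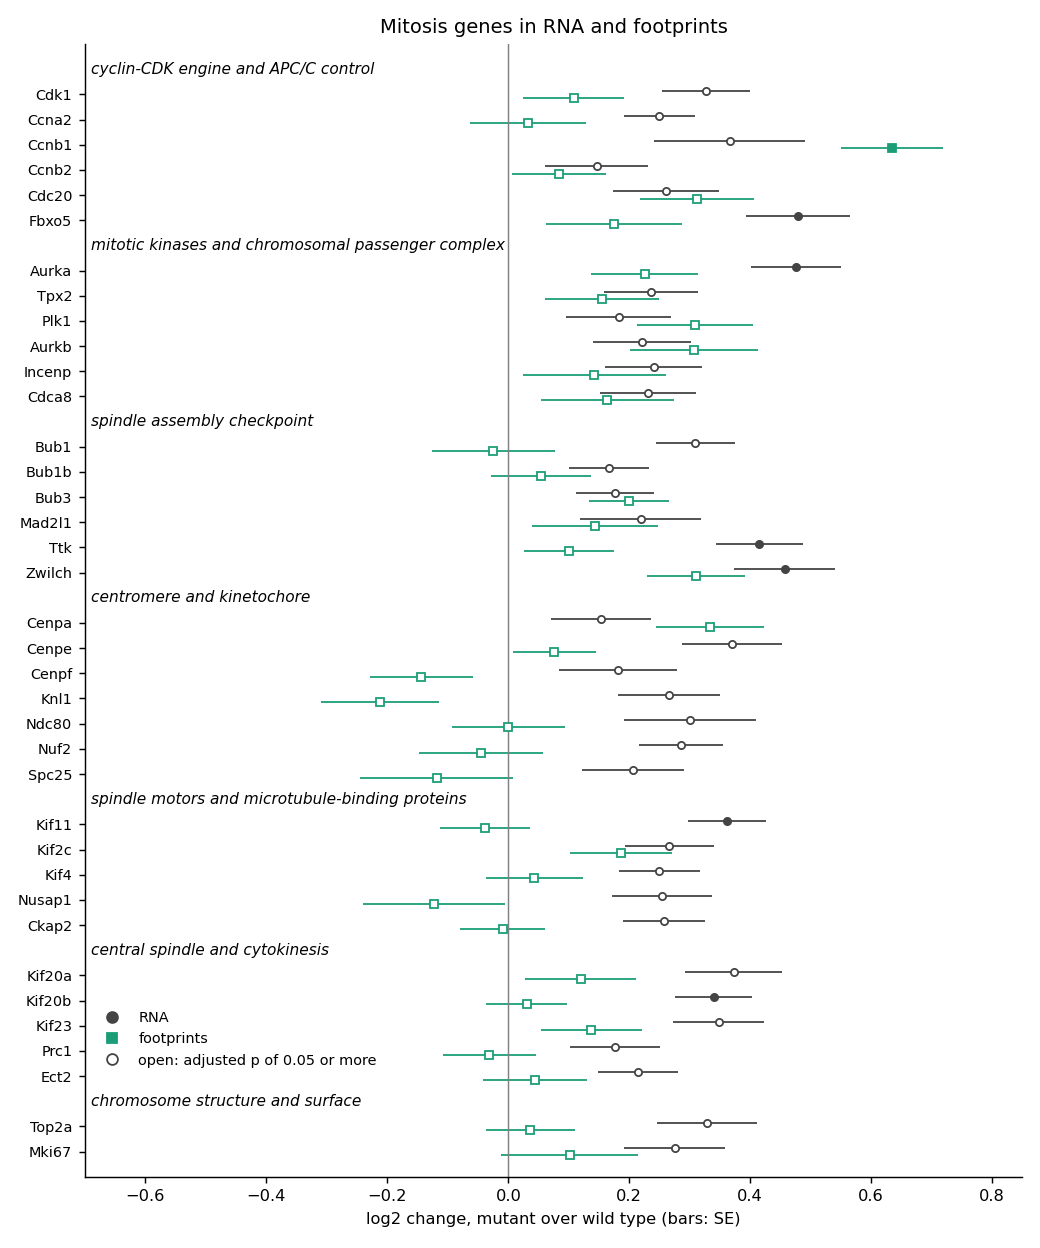
Log2 change of each mitosis gene, mutant over wild type, in RNA (grey circles) and in footprints (green squares), grouped by role, with bars for the SE and filled symbols for an adjusted p under 0.05. All 37 RNA values lie right of 0, between 0.15 and 0.48, while 9 footprint values lie left of it.

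Genes of this kind often share promoter elements, the cell cycle genes homology region (CHR, here TTTGAA or TTCGAA), bound by DREAM and MYB-MuvB complexes, and the CCAAT box, bound by NF-Y. RefSeq promoter windows of GRCm38.p6, from 250 bases before to 50 after the start, were matched for 31 of the 37 genes, using the window nearest to the counted transcript. Ccna2, Tpx2, Aurkb, Incenp, Zwilch and Kif20a were not matched. The RefSeq start was far from that of the counted transcript for Knl1 (10162 bases), Kif2c (3867) and Kif4 (328). Both strands were searched, and TTCGAA reads the same on both. In the 130 bases from 100 before to 30 after the start, 18 of the 31 held a CHR, against 7.65% of all 32851 promoter windows, 22 held CCAAT, against 21.7%, and 16 held both, against 1.70%. In the full 300 bases the counts were 26 for CHR (19.2% of all windows), 24 for CCAAT (37.4%) and 22 for both (7.52%). Mitosis genes were named for their function, and the elements are known in this class, so the shares are a description of the set. A match is letters only and shows no binding.

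The stretches of the genes that passed a test in RNA or footprints and had a window are shown to set the elements side by side, 5′ to 3′ on the strand of the gene, with CHR and CCAAT letters, or their reverse complements, in capitals. Coordinates are those of GRCm38.p6, on the minus strand for Fbxo5 (chr10:5805436-5805565), Aurka (chr2:172370541-172370670) and Ccnb1 (chr13:100786457-100786586), and on the plus strand for Ttk (chr9:83834589-83834718), Kif11 (chr19:37376282-37376411) and Kif20b (chr19:34922258-34922387).
Fbxo5: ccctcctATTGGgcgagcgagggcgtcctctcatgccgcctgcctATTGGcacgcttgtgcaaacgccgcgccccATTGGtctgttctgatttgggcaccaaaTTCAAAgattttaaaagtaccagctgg
Aurka: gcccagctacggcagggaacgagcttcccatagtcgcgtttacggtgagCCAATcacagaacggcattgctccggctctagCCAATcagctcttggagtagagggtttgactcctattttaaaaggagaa
Ttk: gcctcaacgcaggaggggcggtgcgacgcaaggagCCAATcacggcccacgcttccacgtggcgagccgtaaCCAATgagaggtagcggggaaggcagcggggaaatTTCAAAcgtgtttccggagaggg
Kif11: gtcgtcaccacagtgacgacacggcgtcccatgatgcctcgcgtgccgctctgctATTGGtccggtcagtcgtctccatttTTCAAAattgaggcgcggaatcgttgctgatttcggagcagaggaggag
Kif20b: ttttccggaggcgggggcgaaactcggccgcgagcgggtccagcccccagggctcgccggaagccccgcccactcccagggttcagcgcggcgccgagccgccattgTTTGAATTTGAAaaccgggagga
Ccnb1: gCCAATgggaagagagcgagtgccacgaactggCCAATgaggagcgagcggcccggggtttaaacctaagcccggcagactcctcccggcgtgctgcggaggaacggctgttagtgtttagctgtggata
Positions are counted from the RefSeq start, which is not that of the counted transcript: it lies 135 bases inside the counted transcript for Fbxo5 and 84 for Ccnb1, and 64, 29, 21 and 3 bases before its start for Aurka, Ttk, Kif11 and Kif20b. Fbxo5 and Ttk had CCAAT boxes before the RefSeq start and a CHR that begins at bases 4 and 8 after it. For Fbxo5 all of these lie inside the counted transcript. Kif11 had CCAAT 45 and a CHR 19 bases before the start. Kif20b had a pair of adjacent CHR at bases 8 and 14 and no CCAAT, and Aurka and Ccnb1 had 2 CCAAT boxes each and no CHR in this stretch. The Ccnb1 box at -67 also lies inside its counted transcript, while the one at -99 lies before it.

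In footprints the same genes were far less separated. Of the 37, 1 rose, Ccnb1, and none fell, while over all 13423 genes tested 0.223% rose and 0.0298% fell. The median log2 change was 0.10, against 0.01 over all genes. Of the 37, 28 were above 0, against 52.4% of all genes, and values ran from -0.21 for Knl1 to 0.63 for Ccnb1. For 7 genes every mutant library was above every wild-type library, 14.4% of all genes doing so, and for none was every mutant library below, which held for 14.8% of all genes. Summed footprints of the 37 genes were 7092, 6470.5 and 7594 CPM in mutant pools 1, 2 and 3 against 6958, 6754 and 6475 CPM in wild type, so mutant pool 2 was just below every wild-type pool.

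Ccnb1 (chromosome 13, 100778650 to 100786570), the main mitotic cyclin, had 32.8, 31.2 and 32.1 CPM in mutant footprints against 20.1, 21.6 and 20.3 CPM in wild type. The pools within each genotype were close and the genotypes far apart, with a log2 change of 0.63 ± 0.08 (SE, edgeR adjusted p = 0.0200). In RNA it had 39.2, 27.8 and 36.5 CPM in the mutant against 28.2, 27.3 and 24.9 CPM, where mutant pool 2 overlapped wild type (0.37 ± 0.12, edgeR adjusted p = 0.157). Of the 30-base words in its coding sequence, 91.7% also occur in annotated transcripts of other genes, most of all in the pseudogene Ccnb1-ps (79.0%). How reads that fit several genes were counted is not given in the sources used here, so the level of Ccnb1 and its difference are uncertain. The call was lost with a replicate block (edgeR adjusted p = 0.0607), with all lanes summed (edgeR adjusted p = 0.0649), without mutant pool 3 (edgeR adjusted p = 0.0664) and without wild-type pool 1, 2 or 3 (edgeR adjusted p = 0.186, 0.105 and 0.164). Without mutant pool 2, 12 of the 37 genes rose in footprints, and without mutant pool 1, 1 did. Over all genes 1041 rose and 1292 fell without mutant pool 2, and 30 and 5 without mutant pool 1, against 30 and 4 in the main run. The log2 change of Ccnb1 stayed between 0.61 and 0.71 in all 15 alternatives.

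The other 6 genes without overlap in footprints were Cenpa, Cdc20, Zwilch, Plk1, Aurkb and Bub3, and none of them passed. Of their coding 30-base words, 34.4% for Cdc20, 19.3% for Plk1 and 14.9% for Bub3 also occur in transcripts of other genes. Part of the counts of Cdc20, Plk1 and Bub3 is thus uncertain in both assays. The shares were 0.59% for Aurkb and 0.0% for Cenpa and Zwilch. Cenpa had 48.2, 43.5 and 50.6 CPM in mutant footprints against 38.7, 39.6 and 34.8 CPM in wild type (log2 difference 0.33 ± 0.09, edgeR adjusted p = 0.101). Cdc20 had 199.6, 157 and 179.9 CPM against 151, 147 and 134 CPM (0.31 ± 0.09, edgeR adjusted p = 0.119). Zwilch had 39.1, 35.7 and 38.3 CPM against 31.6, 28.9 and 30.5 CPM (0.31 ± 0.08, edgeR adjusted p = 0.0980). Zwilch was the one gene separated in both assays among those that rose in RNA. Fbxo5 (0.17), Aurka (0.23), Ttk (0.10) and Kif20b (0.03) were positive with overlapping groups, and Kif11 was at -0.04 ± 0.07 (edgeR adjusted p = 0.782), with 227, 237 and 260.1 CPM in mutant footprints against 261, 241 and 242 CPM.

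The lowest footprint values were those of kinetochore and spindle genes. Knl1 had 103, 94.6 and 124 CPM in mutant footprints against 129, 123 and 120.5 CPM in wild type (-0.21 ± 0.10, edgeR adjusted p = 0.230), so that mutant pools 1 and 2 were below wild type and mutant pool 3 within it. Cenpf was at -0.14 ± 0.09 and Nusap1 at -0.12 ± 0.12, also with overlap. By role, the median footprint change was 0.14 for the cyclin and APC/C genes, 0.19 for the kinases and passenger complex and 0.12 for the checkpoint. It was -0.05 for the kinetochore, -0.01 for spindle motors and microtubule binders, 0.04 for cytokinesis and 0.07 for chromosome structure. Footprint differences moved with coding GC content over the members (Pearson r of 0.68), and these medians are not adjusted for it. With offsets for GC content, all kinetochore, spindle motor and microtubule-binding genes but Cenpf (-0.0073) and Nusap1 (-0.0030) were above 0.

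**Figure D3:**
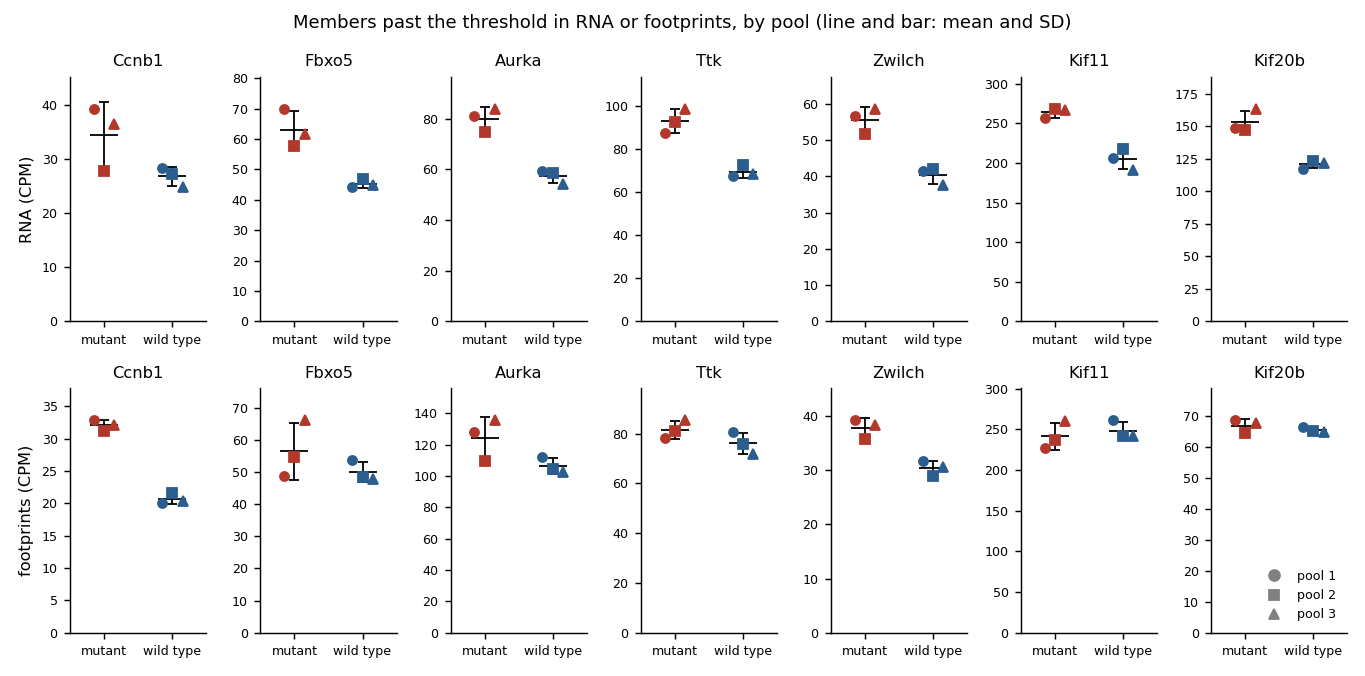
CPM in RNA (top) and footprints (bottom) of the 7 mitosis genes that passed in either assay, mutant pools left of wild-type pools, with the mean and SD. In RNA the 6 genes from Fbxo5 to Kif20b separate the genotypes and Ccnb1 does not, and in footprints Ccnb1 and Zwilch do.

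Translational efficiency, the footprints per mRNA, was therefore lower in the mutant for most mitosis genes, but for none beyond the threshold when all genes were tested. The test was the interaction of genotype and assay in 1 model over the 12 libraries. Of the 37, 31 were below 0, with a median of -0.19 against 0.02 over all 13877 genes tested. Of all those genes 53.9% were above 0. No member passed in either direction, and neither did any other gene with edgeR's quasi-likelihood test (0.0% higher and 0.0% lower). DESeq2 and limma-voom also called 0 of the 37, and over all genes DESeq2 called 16 higher and 4 lower. At an unadjusted p under 0.05, 10 members were lower and none higher, while over all genes 4.07% were lower and 5.77% higher. With the pool as a block, which the design allows because each pool's cells were divided between the 2 assays, Kif11 and Knl1 were lower (edgeR adjusted p = 0.0394 and 0.0381), and 71 genes were higher and 42 lower in all.

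The pools show the same shift. The median log2 of footprints over RNA for the 37 genes was 0.11, 0.03 and 0.06 in mutant pools 1, 2 and 3, against 0.35, 0.27 and 0.32 in wild type, while over all genes it was -0.10, -0.09 and -0.08 in mutant pools against -0.08 in each wild-type pool. All mutant pools were below all wild-type pools for the mitosis genes. Kif11 had -0.17, -0.18 and -0.04 in the mutant against 0.34, 0.15 and 0.34 in wild type (interaction -0.38 ± 0.10, edgeR adjusted p = 0.398). Knl1 had -0.58, -0.95 and -0.67 against -0.24, -0.29 and -0.23 (-0.46 ± 0.14, edgeR adjusted p = 0.430), and Nusap1 was next at -0.36 ± 0.16. The 6 positive values were those of Ccnb1 (0.29 ± 0.16), Cenpa (0.20 ± 0.12), Plk1 (0.14 ± 0.14), Aurkb (0.10), Cdc20 (0.07) and Bub3 (0.04).

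The GC content of the coding sequence moved with these differences. It was known for 35 of the 37 genes, with a median of 46.0%, against 53.3% over 13238 genes tested, and 31 of the 35 lay below that median. The range went from 37.8% for Knl1, whose efficiency difference was the lowest, to 56.4% for Plk1. Across the 35 genes, which share all libraries, the efficiency difference had a Pearson r of 0.80 with GC content and a Spearman coefficient of 0.80, and across all genes these were 0.45 and 0.59. Footprint differences gave 0.68 and 0.75 over the members and 0.39 and 0.42 over all genes, RNA differences -0.29 and -0.35, and -0.14 and -0.19. The 11 members of lowest GC, up to 44.1%, had a median efficiency difference of -0.31, and the 1171 genes of the table up to the same GC had -0.23. The 11 of highest GC, from 48.9%, had -0.04 against 0.08 for 9624 genes. Within bins of 2 percentage points of GC, 27 of the 35 had an efficiency difference below the median of all genes in their bin and 8 above it. In RNA all 35 were above that median, and in footprints 32. In RNA the 11 members of lowest GC had a median of 0.31 against 0.10 for genes up to the same GC, and those of highest GC 0.22 against -0.01.

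With offsets fitted to GC content in each library, the median efficiency difference of the 35 genes was -0.05 in place of -0.19, and 11 were above 0. The footprint median became 0.19 in place of 0.08, with 33 of 35 above 0 and Ccnb1 again the single gene that rose. The RNA median became 0.21 in place of 0.26, with all 35 above 0 and 0 past the threshold, the smallest edgeR adjusted p being 0.0705 for Aurka. Under this setting Kif11 efficiency was at -0.14 ± 0.09 and Knl1 at -0.07 ± 0.14. What lies behind the relation with GC was not tested.

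**Figure D4:**
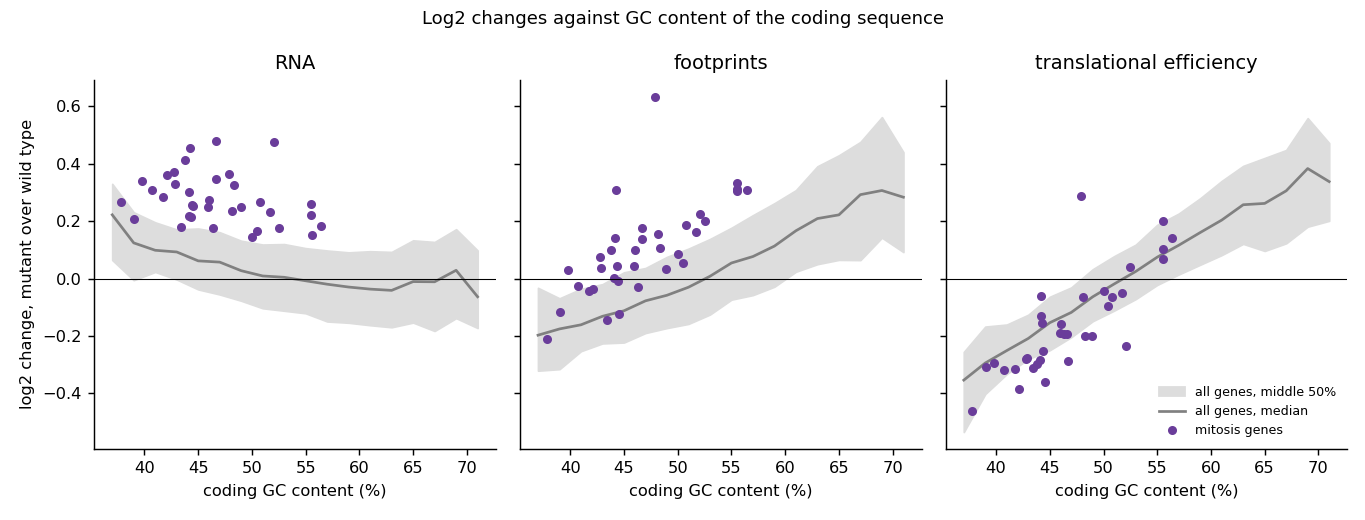
Log2 change of mitosis genes (points) against GC content of the coding sequence, for RNA, footprints and translational efficiency, with the median (line) and middle 50% (band) of all genes in bins of 2 percentage points. In RNA 33 of 35 points lie above the band, and in efficiency 27 of 35 lie below the line, 10 of them below the band, from Knl1 at 37.8% GC and -0.46 to Plk1 at 56.4% and 0.14.

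Within wild type the mitosis genes differed widely in level and in footprints per mRNA. Per kilobase of coding sequence, the highest RNA levels were those of Top2a (219 ± 7.95 CPM per kb, SD, n = 3), Cenpa (167 ± 6.02) and Bub3 (165 ± 5.67), and the lowest those of Ndc80 (21.6 ± 2.71), Ccnb1 (21.7 ± 1.40) and Kif20b (23.0 ± 0.58). The median was 55.4 CPM per kb, against 24.4 over all genes tested. In that order 30 of the 36 neighbouring pairs overlapped in their pools, and Top2a stood clear of Cenpa. In footprints Top2a (275 ± 10.6), Bub3 (242 ± 6.80) and Ccna2 (226 ± 20.2) were highest and Kif20b (12.5 ± 0.16), Ccnb1 (16.8 ± 0.66) and Zwilch (17.5 ± 0.78) lowest.

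Set against mRNA, 25 of the 37 genes had more footprints than the average gene and 6 fewer at an adjusted p under 0.05 in edgeR's quasi-likelihood test of the assay term in wild type, where 35.5% of all genes were higher and 36.3% lower. The median log2 value was 0.40, against 0.01 over all genes. The assay term was fitted over all 12 libraries, mutant ones included, and was not run with the pool as a block. RNA and footprints of a pool share cells, so this test leaves out their pairing. Aurka had the highest, 0.99 ± 0.08, with rank 24 in RNA and rank 14 in footprints per kilobase among the 37, followed by Ndc80 (0.90 ± 0.11) and Cdca8 (0.90 ± 0.10). Kif20b had the lowest, -0.79 ± 0.06, then Cenpa (-0.52 ± 0.08) and Bub1 (-0.51 ± 0.09), whose kinase relative Bub1b was at 0.24. Ndc80 shares 20.6% of its coding 30-base words with other genes, so part of its count is uncertain. These shares were 0.65% for Aurka, 0.24% for Cdca8 and 0.0% for Kif20b, Cenpa and Bub1. RNA fragments and footprints were made into libraries from different starting material, so these values compare genes on 1 scale and do not give ribosomes per mRNA.

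**Figure D5:**
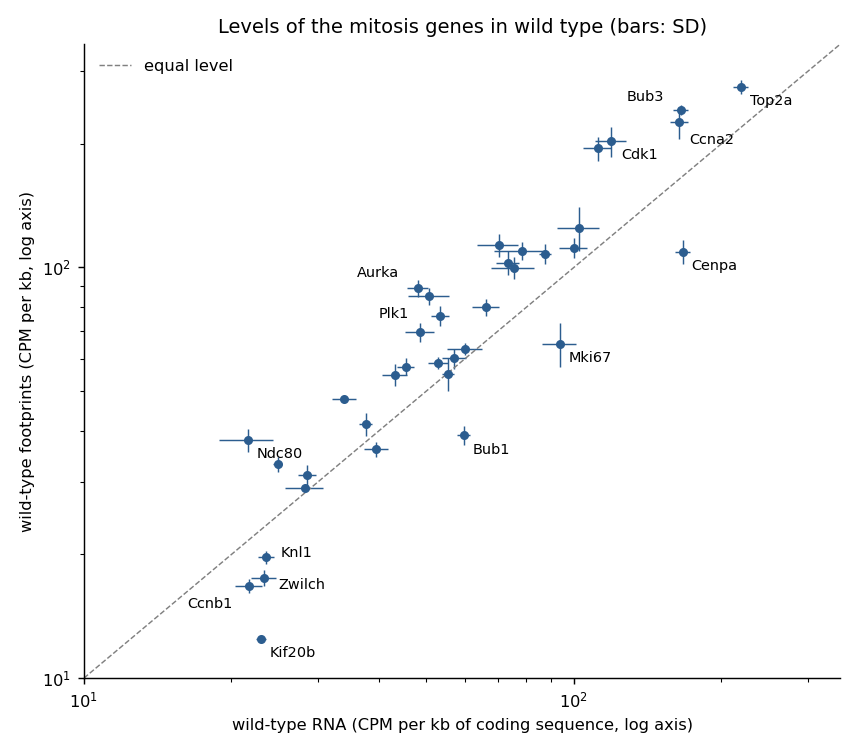
Wild-type RNA (x) and footprint (y) levels of the mitosis genes in CPM per kb of coding sequence, on log axes, as means of 3 pools with SD bars. Genes above the dashed line of equal level, such as Aurka and Ndc80, have more footprints than RNA on these scales, and Kif20b, Bub1, Cenpa and Mki67 fewer.

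Footprints in the 5′ untranslated region were also counted, since eIF3 acts before the start codon. Summed over the 37 genes they came to 13.3%, 10.8% and 11.8% of coding footprints in mutant pools 1, 2 and 3, against 9.57%, 9.74% and 9.74% in wild type. Each mutant pool was above each wild-type pool, with mutant pool 1 the highest. The mean difference was 2.29 percentage points, from 1.63 to 2.88 when any 1 pool was left out. Over all 13047 genes with such a region the shares were 20.3%, 16.7% and 19.6% in the mutant against 16.5%, 16.4% and 16.3%. In RNA the members' shares overlapped, at 5.34%, 4.41% and 4.68% in the mutant against 4.90%, 4.94% and 5.17%. By gene, every mutant pool was above every wild-type pool for 15 of the 37, against 23.5% of all genes, and below for 1, Bub3, against 3.53%. Among the 15 was Mad2l1, at 55.0%, 38.4% and 38.5% in the mutant against 21.0%, 28.9% and 25.1% in wild type. Of the coding 30-base words of Mad2l1, 28.9% also occur in other genes, so part of its coding count is uncertain. Spc25 was at 42.5%, 29.4% and 30.6% against 19.7%, 24.3% and 21.8%, and Kif11 at 17.0%, 11.2% and 14.0% against 9.66%, 10.4% and 9.04%. The position within a footprint that was used for counting is not given in the sources used here, so footprints of ribosomes at the start codon may be among these.

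Other genes of mitosis, listed by function with earlier results of these data known, were also mostly above 0 in RNA. Of 35 other kinetochore and checkpoint genes, 2 rose and none fell, 33 were above 0 and the median was 0.31. Over all genes tested in RNA, 0.224% rose, 0.164% fell, 53.2% were above 0 and the median was 0.01. Among the 35 was Kntc1 (0.41 ± 0.07, edgeR adjusted p = 0.0391), whose product forms a complex with the Zwilch protein. Of 39 other spindle, centrosome and cytokinesis genes, 1 rose, the GTPase-activating protein gene Arhgap11a (0.38 ± 0.06, edgeR adjusted p = 0.0365), none fell, 37 were above 0 and the median was 0.22. None passed among 20 condensin, cohesin and separase genes (median 0.15), 23 of 24 listed genes of mitotic entry and late cell cycle transcription (median 0.17) and 17 APC/C subunits and E2 enzymes (median 0.04). Among these the condensin genes Smc4 (0.35 ± 0.07) and Ncapg (0.29 ± 0.06), the entry kinase Mastl (0.40 ± 0.08) and the transcription factor Mybl2 (0.41 ± 0.09) did not pass, with edgeR adjusted p from 0.0514 to 0.0586. Of the APC/C list the smallest p was that of Ube2c, its E2 enzyme (0.19 ± 0.07, edgeR adjusted p = 0.206). In footprints and in efficiency none of these 5 lists had a gene past the threshold. Their median efficiency differences were -0.20 for kinetochore and checkpoint, -0.19 for condensin and cohesin, -0.08 for spindle and cytokinesis, -0.06 for the APC/C and -0.03 for mitotic entry.

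Markers of other cell types were compared in the same way. Over all genes tested in RNA, 0.224% rose, 0.164% fell, 53.2% were above 0 and the median was 0.01. In footprints 0.223% of all genes rose, 0.0298% fell, 52.4% were above 0 and the median was 0.01. Of 20 neuron markers none passed in RNA, 3 were above 0 and the median was -0.23, with summed levels of 5976 to 6855 CPM in the mutant against 7221 to 7499 CPM in wild type, and none at 0. Mapt, a microtubule protein of axons, had the smallest p (-0.59 ± 0.12, edgeR adjusted p = 0.0580), followed by Gap43 and Ina. In footprints none passed, the median was -0.20 and the sums were 10442 to 11304 CPM in the mutant against 11783 to 12864 CPM. Of 16 neural progenitor markers none passed, 9 were above 0 in RNA, the median was 0.03, and the sums overlapped at 5537 to 6344 CPM in the mutant against 5899 to 6167 CPM. Of 14 erythroid markers 13 had counts, and 1 rose in RNA, the globin gene Hbb-bt (1.23 ± 0.20, edgeR adjusted p = 0.0365), which has a near-identical copy, Hbb-bs, that makes its count uncertain. All 13 were above 0 with a median of 0.48, in sums of 3062 to 6713 CPM in the mutant against 2955 to 3609 CPM, and none of the 13 was at 0. In footprints Hba-a2 rose (0.94 ± 0.15, edgeR adjusted p = 0.0467), a globin gene with a near-identical copy, Hba-a1. Endothelial markers (medians 0.15 in RNA and 0.15 in footprints), mesenchyme markers (-0.00061 and 0.44) and markers of neural crest and sensory ganglia (0.23 and 0.28) had no gene past the threshold, and their summed RNA overlapped between genotypes. The part of these cell types in the difference of the mitosis genes was not tested. Mutant pool 1 had the most erythroid and endothelial RNA. Without it the median of the mitosis genes in RNA was 0.27 and 9 of them rose, with 41 genes higher and 33 lower over all. Leaving out 1 pool removes all its cell types at once, so it does not test the part of any.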

How the data were processed

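Counts per transcript region were deposited by the authors as a table of whole numbers for 96 lane samples; per the submitters' processing notes, cutadapt, STAR and bedtools were used with mm10. For versions, strand, reads that fit several places and the counted position of a footprint, the answer was not given in the sources used here. Coding counts leave out the first 15 and last 5 codons. The 2 runs of 4 lanes were summed to 12 libraries. Of the lanes, 4 of mutant footprint pool 1, all of run 1, held counts on at most 3 chromosomes and were dropped. That library thus rests on 4 complete lanes of run 2, while the other libraries sum both runs. Of 122941 transcript identifiers, 148 matched no gene of GENCODE vM21 and were left out with 0.328% of counts. The most abundant transcript stood for each gene.

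Genes with low counts were removed (filterByExpr, minimum count 10, minimum total 15), libraries were scaled by TMM (factors 0.951 to 1.07) and edgeR 4.0.16 quasi-likelihood tests were run in R 4.3.3 at an adjusted p of 0.05. The SE is the log2 change over the square root of F. Replicates varied with a biological coefficient of 8.16% in RNA and 9.97% in footprints. Efficiency per pool used a prior of 0.5 CPM. DESeq2 1.42.0 and limma-voom 3.58.1, other filters, transcripts and scalings, GC offsets (loess, span 0.3) and leaving out each pool were alternatives. The procedure was tested on simulated data, with changes larger than those of the mitosis genes and with no GC trend or shared pools. That test does not show how well changes of the size seen here are recovered.

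RNA and footprint libraries of a pool share cells, per the labels' protocols, and their deviations from the group means correlated at 0.574, 0.495 and 0.275 in mutant pools 1, 2 and 3 and at 0.210, 0.225 and 0.321 in wild-type pools.

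The members and all gene lists were chosen with earlier results of these data known. Full statistics are given for members past the threshold, the 3 highest and 3 lowest of each comparison, and up to 4 genes of smallest p per list, while any member may be named for its role. A result for 1 listed gene is not reported here. Tools for promoters and figures were Python 3.11.15, pandas 2.3.3 and Matplotlib 3.10.9.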

Additional observations from a re-analysis of the deposited data

How the results depend on the processing

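The number of mitosis genes that rose in RNA, 6 by edgeR's quasi-likelihood test, was 14 with DESeq2, 14 with no filter on low counts, 1 with whole coding sequences and 0 with GC offsets, and between 0 and 26 when 1 pool was left out. The number that rose in footprints, 1, was 3 with DESeq2 (Ccnb1, Cenpa and Zwilch), 0 with all lanes summed, and between 0 and 12 when 1 pool was left out. The highest values, 26 and 12, were reached without mutant pool 2, and 0 was reached in both assays without mutant pool 3 or without wild-type pool 1, 2 or 3. Over all genes, the main run called 30 higher and 22 lower in RNA and 30 and 4 in footprints. Without mutant pool 2 these were 556 and 966 in RNA and 1041 and 1292 in footprints. With DESeq2 they were 132 and 276 in RNA and 442 and 393 in footprints. The log2 RNA difference of all 37 genes stayed above 0 in every alternative that could be run on them.

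With GC offsets the median efficiency difference was -0.050 in place of -0.19, and the sign changed for 7 of 35 genes in each of footprints and efficiency. In footprints Bub1, Ckap2, Nuf2, Prc1, Spc25, Knl1 (0.034) and Kif11 (0.12) were then above 0. In efficiency Ect2, Mad2l1, Spc25, Tpx2, Zwilch (0.051) and Kif20b (0.023) were above 0 and Cdc20 (-0.020) below. With all lanes summed Fbxo5 efficiency was at 0.071. When 1 pool was left out, Kif11 footprints ran from -0.097 to 0.0034, the highest without mutant pool 1. The median over members of the 5′ untranslated share differed by 3.30 percentage points, against 2.29 for the summed share. The causes were not tested.

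With the replicate number as a block, 8 of the 37 genes rose in RNA and 0 in footprints. Over all genes 61 rose and 135 fell in RNA, and 27 rose and 11 fell in footprints. In efficiency the replicate block was the pool, that is the RNA and footprints of the same cells, and 2 of the 37 genes were lower. For RNA or footprints alone, mutant and wild-type pools share a TC number in the sample titles, which the main tests did not use. Same-numbered mutant and wild-type pools correlated at 0.115, 0.0562 and 0.0758 in RNA, against -0.0947 to 0.0125 for pools of unlike number. In footprints same-numbered pools correlated at -0.0914, -0.103 and -0.0420, against -0.0481 to 0.125 for unlike numbers. Whether the numbers mark pairs was not tested.

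Depth limits Ccnb1 most, with 179 counts in its lowest RNA library.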
